A study of Mus musculus with 8 samples.

Results

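The mRNAs of 10 genes were read from mRNA-seq libraries of group 2 innate lymphoid cells (ILC2s): Areg, Hbegf and Tgfb1 (growth factors), Arg1 (an enzyme), Penk (a neuropeptide precursor), and Lif, Il6, Il2, Il9 and Il10 (cytokines). They were chosen by symbol as products that ILC2s are known for in tissue repair or as accessory cytokines beside IL-5 and IL-13. The rule used their symbols only, but the list was made with earlier results of these data known. They are 10 of the 23183 genes counted. The cells were murine lung ILC2s of the C57BL/6 genotype, enriched with a pan-ILC kit and CD45 microbeads from mice that had received recombinant IL-33, and both groups were cultured with IL-2, IL-7 and IL-33. For 3 h, 4 samples were exposed to 5 µM Yoda1, a chemical agonist of the mechanosensitive cation channel Piezo1, and 4 control samples to 0.1% DMSO, the solvent. Nothing about separate mice or separate cultures within a group is given in the sources used here, so p-values measure the spread between these samples only.

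ILC2s reside in lung and other barrier tissues and answer alarmins such as IL-33 by releasing type 2 cytokines. They also make amphiregulin, an EGF-like growth factor that acts on EGFR of epithelial cells and is tied to repair after lung injury, and they hold arginase 1, which splits arginine into ornithine and urea. Cytokine mRNAs of this kind are typically short-lived, because AU-rich elements in their 3′ UTRs, built around the pentamer AUUUA, recruit proteins that bring about their decay.

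Library totals ran from 12438009 to 19534653 counts, and values are given as CPM, that is, counts scaled to a common total with TMM factors, with SD and n = 4 in each group. In bulk RNA, fewer cells of a type and less RNA per cell cannot be told apart. The ILC2 label was checked against 11 marker genes, all of which were detected, among them Gata3 (564.9 ± 25.7 CPM with DMSO), Il1rl1, the IL-33 receptor (1528 ± 43.6), and Il13 (5431 ± 187), with 5 of 11 higher and 1 lower in Yoda1. Over all genes tested in edgeR, 6.04% were higher and 4.84% lower at an adjusted p under 0.05. Markers of other cell types were detected to different degrees. Of the macrophage or monocyte markers, Mertk and Chil3 were at 0 in all 8 libraries and Csf1r was at 0 to 3 counts, while Itgam (46 to 87 counts) and Cd68 (29 to 62 counts) were detected in every library, and the summed level of the 9 genes was 7.32 to 9.09 CPM with DMSO and 7.31 to 8.74 CPM with Yoda1. Pax5 of the 6 B cell markers (5.62 to 7.20 CPM in sum with DMSO, 5.78 to 7.95 with Yoda1) and Sftpc of the 8 epithelial or fibroblast markers (5.03 to 5.75 and 4.12 to 5.50) were also at 0 throughout. The 8 mast cell or basophil markers summed to 80.4 to 91.6 and 78.2 to 89.3 CPM, most of it Kit. The summed level of the 7 T cell markers counted was 88.7 to 95 CPM with DMSO and 97.2 to 108 CPM with Yoda1, with 1 of 7 higher (Cd28, log2 fold change 0.29). The largest part of it was Cd3g (46.85 ± 2.05 and 52.2 ± 3.19 CPM). The summed level of the 7 NK cell or ILC1 markers was 447 to 499 CPM with DMSO and 510 to 540 CPM with Yoda1, with 3 of 7 higher (Tbx21, Eomes and Prf1), and most of it was Prf1 (385 ± 22.8 and 423 ± 8.85 CPM). The T cell and NK cell or ILC1 sums were thus higher in every Yoda1 library than in any DMSO library. The same held for the 11 ILC2 markers, at 14146 to 14611 CPM in sum with DMSO and 16029 to 16353 CPM with Yoda1. Most of that sum was Il13 (5431 ± 187 and 6667 ± 114 CPM) and Il5 (3338 ± 80.6 and 3672 ± 92.5 CPM), which both rose. Gata3 was at 564.9 ± 25.7 and 565 ± 25.4 CPM. The part of these cell types in the results that follow was not tested.

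Yoda1-treated ILC2s held more mRNA of 6 of the 10 products, namely Areg, Hbegf, Arg1, Penk, Il6 and Il10, and less of 1, Il9. Lif and Tgfb1 did not pass the test, and Il2 was too scarce to be tested. Of the 9 genes tested, 7 were thus past an adjusted p of 0.05 in edgeR's quasi-likelihood test, against 10.9% of the 12239 genes tested (6.04% higher and 4.84% lower). The changes were modest, from a fold of 0.82 for Il9 to 1.54 for Il10. DESeq2 called 6 higher and 0 lower, and limma-voom 6 and 1. The median log2 fold change of the 9 was 0.27, against −0.0053 over all genes tested. In 7 of the 9, including Lif, all Yoda1 libraries lay on one side of all DMSO libraries, a separation that 15.5% of all genes tested showed. Since the genes were listed with earlier results of these data known, these contrasts with all genes are no independent test. Together the 10 genes took 0.275% to 0.283% of the counts of a DMSO library and 0.293% to 0.302% of a Yoda1 library.

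**Figure D1:**
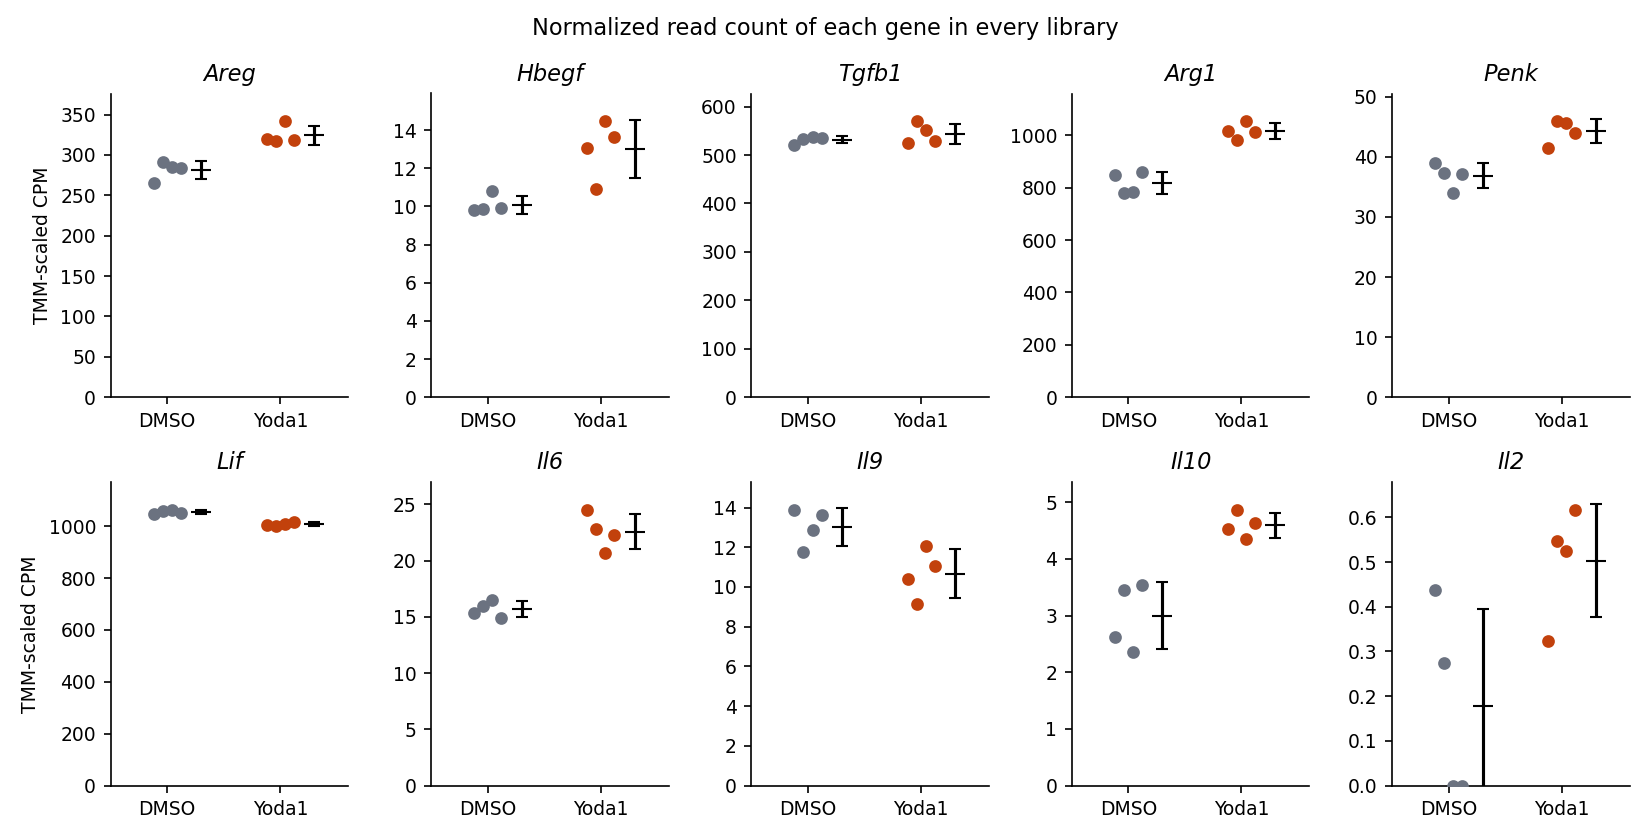
Normalized read count (TMM-scaled CPM, linear axis from 0) of each gene in the 4 DMSO and 4 Yoda1 libraries, with 1 point per library in replicate order and the mean ± SD beside them. Points of the 2 groups do not overlap for Areg, Hbegf, Arg1, Penk, Il6 and Il10 (Yoda1 higher) and for Lif (Yoda1 lower), and they overlap for Tgfb1, Il9 and Il2.

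Levels between genes were compared per kilobase of annotated exon. In the DMSO libraries, Arg1 stood highest at 367 ± 18.8 CPM per kb, followed by Lif at 243 ± 1.56, Areg at 232 ± 9.0 and Tgfb1 at 105 ± 1.42. Il9 (24.3 ± 1.76) and Penk (22.6 ± 1.31) came next, and their ranges overlapped. Below them lay Il6 at 6.46 ± 0.286, then Il10 (2.29 ± 0.450) and Hbegf (2.09 ± 0.0978), whose ranges also overlapped, and Il2 at 0.156 ± 0.189. Arg1 thus ranked at the 99.1th percentile of the 11753 tested genes with an annotated length and Hbegf at the 25.6th. With Yoda1, Areg and Lif changed places. Areg, at 261 to 281 CPM per kb, lay above Lif at 230 to 234 in every Yoda1 library, while in DMSO the lowest Lif library (241) lay above the highest Areg library (239). Penk, at 25.4 to 28.1 CPM per kb, lay above Il9 at 17.0 to 22.5 in the Yoda1 libraries, while with DMSO the ranges of these 2 genes overlapped. The crossing of Areg and Lif depends on the annotated lengths, 1215 bases for Areg and 4350 for Lif, and so on the isoforms that the cells use, which were not measured here. The order of Penk (1634 bases) and Il9 (536) has the same limit.

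**Figure D2:**
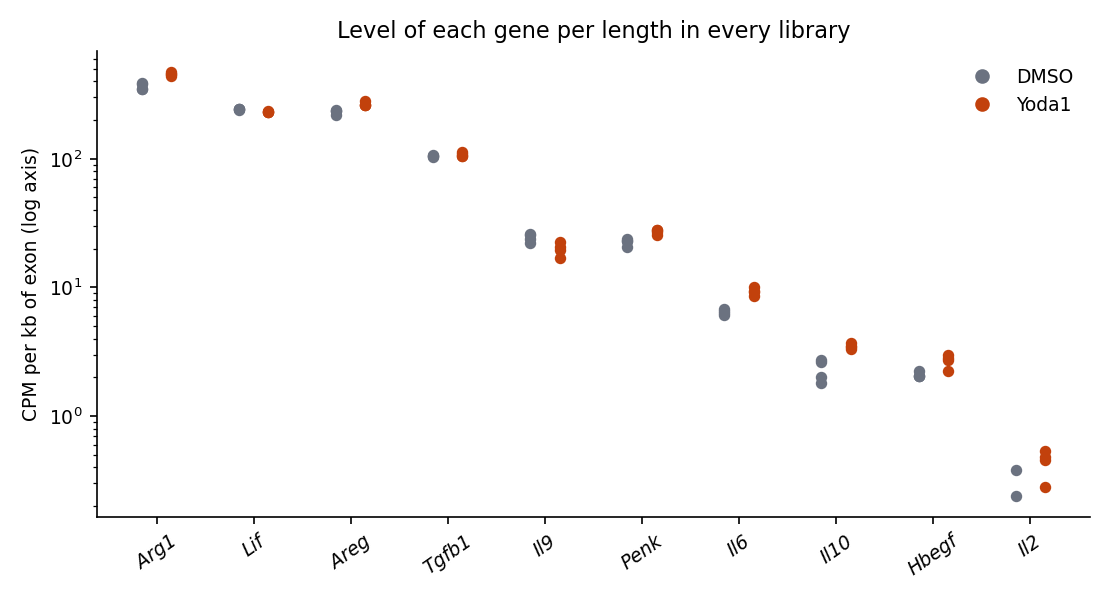
CPM per kilobase of exon (log axis) of the 10 genes, ordered by their DMSO mean, with 1 point per library. Arg1 stands highest in both groups, and Areg passes Lif in the Yoda1 libraries. Penk and Il9 overlap with DMSO, and Penk lies above Il9 with Yoda1. The 2 DMSO libraries in which Il2 had 0 counts are not drawn.

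Most of these genes carried the AUUUA pentamer in the 3′ UTR of their principal transcript (GENCODE M21, GRCm38). It is written ATTTA in the DNA. It was present in 9 of the 10, all but Penk, against 68.0% of 11286 tested genes with an annotated 3′ UTR, whose median was 1.29 copies per kb. Il9 held 3 copies in an annotated UTR of only 86 bases, Areg 4 in 253, Il6 6 in 427, Il2 7 in 581 and Il10 6 in 706, while Lif held 7 in 3180, Hbegf 4 in 1456, Arg1 1 in 389 and Tgfb1 1 in 135. The most crowded stretch is shown for 4 of them to set the mRNAs that rose (Areg, Il6) beside Il9, called lower with overlapping groups and in 8 of 16 alternatives not called, and Lif, which did not pass the test, with each pentamer in capitals. Their positions are chr5:91148369-91148398 on the plus strand (Areg), chr5:30019688-30019706 on the plus strand (Il6), chr13:56479329-56479354 on the minus strand (Il9) and chr11:4272414-4272443 on the plus strand (Lif).
Areg: ataATTTATTTAatATTTAagtgttATTTA
Il6: ttaATTTAttgataATTTA
Il9: gctATTTAttctATTTAttgaATTTA
Lif: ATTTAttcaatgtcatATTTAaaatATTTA
In Areg, the first pair of pentamers shares a base.

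Among the growth factors, Areg (chr5:91139599-91148432, plus strand, 6 exons) encodes amphiregulin. Its level was 266, 291, 285 and 284 CPM in the DMSO libraries and 319, 317, 342 and 318 CPM in the Yoda1 libraries. Every Yoda1 library was above every DMSO library, and replicate 3 was the highest of its group. The means were 281 ± 10.9 and 324 ± 11.9 CPM (SD, n = 4 each), which is a 1.15-fold rise (log2 fold change 0.20, standard error 0.037, 95% interval 0.13 to 0.28, adjusted p = 0.000372). Counts ran from 3839 to 6189 per library. The RefSeq promoter (GRCm38.p6, 250 bases before to 50 after the start, chr5:91139349-91139648, plus strand) is shown because a CREB-binding element is what the Areg promoter is known for, with motif matches on either strand in capitals.
Areg promoter: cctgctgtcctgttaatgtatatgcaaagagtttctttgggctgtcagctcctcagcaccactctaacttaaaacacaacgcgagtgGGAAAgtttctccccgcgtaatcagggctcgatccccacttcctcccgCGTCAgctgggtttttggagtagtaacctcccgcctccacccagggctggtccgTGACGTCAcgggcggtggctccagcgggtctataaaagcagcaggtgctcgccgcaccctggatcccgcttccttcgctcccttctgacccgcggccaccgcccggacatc
Searched were the cAMP response element (CRE) half-site TGACG, found in 21% of 27025 promoters of this length, the full CRE TGACGTCA, found in 1.9%, the AP-1 site TGANTCA, found in 7.9%, and the NFAT core GGAAA, found in 61.3%. Areg held a full CRE starting 61 bases before the start, which consists of overlapping half-sites on the 2 strands, a further half-site 115 bases before it and 1 NFAT core 163 bases before it. A match describes letters in this window and not a bound site.

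Hbegf (chr18:36504927-36515805, minus strand, 6 exons) encodes heparin-binding EGF-like growth factor, a second ligand of EGFR. It was scarce, at 9.83, 9.86, 10.8 and 9.90 CPM with DMSO and at 13.1, 10.9, 14.5 and 13.6 CPM with Yoda1. The groups did not overlap, but the highest DMSO library and the lowest Yoda1 library nearly met. The mean went from 10.1 ± 0.473 to 13.0 ± 1.53 CPM (SD, n = 4 each), which is a 1.29-fold rise (log2 fold change 0.36, standard error 0.095, 95% interval 0.17 to 0.56, adjusted p = 0.0111), from 134 to 265 counts per library. Without Yoda1 replicate 4 the adjusted p was 0.0514 and the call was lost.

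Tgfb1 (chr7:25687002-25705077, plus strand, 7 exons) encodes TGF-β1, which is made as a latent precursor and drives matrix production. The DMSO libraries held 521, 533, 538 and 534 CPM and the Yoda1 libraries 525, 570, 551 and 529 CPM. The groups overlapped. The means were 532 ± 7.17 and 544 ± 20.8 CPM (SD, n = 4 each), and differed by 0.033 on the log2 scale (standard error 0.035, 95% interval −0.039 to 0.10, adjusted p = 0.616; exact permutation test, p = 0.400). At 6508 to 10288 counts per library, the interval bounds a rise at 1.08-fold and a fall at 0.97-fold. None of the 4 motifs was found in its promoter.

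Arg1 (chr10:24915221-24927484, minus strand, 8 exons), the most highly expressed of these genes per length, was at 847, 778, 783 and 858 CPM with DMSO. In the Yoda1 libraries it was at 1015, 983, 1054 and 1013 CPM, all above the highest DMSO library. Mean levels were 817 ± 42.0 and 1016 ± 29.0 CPM (SD, n = 4 each), which is a 1.24-fold rise (log2 fold change 0.32, standard error 0.038, 95% interval 0.24 to 0.39). Of the 10 genes it had the smallest adjusted p (5.31e-07), at 11611 to 19694 counts per library. Macrophages are another well-known source of Arg1. The 9 macrophage or monocyte markers summed to 7.32 to 9.09 CPM with DMSO and 7.31 to 8.74 CPM with Yoda1, most of it Itgam and Cd68, with Mertk and Chil3 at 0 in all libraries, and their part in the level of Arg1 was not tested.

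Penk (chr4:4133531-4138819, minus strand, 2 exons) encodes proenkephalin, from which enkephalins are cut, and has been associated with ILC2s of adipose tissue. Its level was 39.1, 37.4, 34.0 and 37.2 CPM in DMSO libraries and 41.5, 46.0, 45.7 and 44.0 CPM in Yoda1 libraries, without overlap. The mean rose 1.20-fold, from 36.9 ± 2.13 to 44.3 ± 2.05 CPM (SD, n = 4 each), and the log2 fold change was 0.27 (standard error 0.055, 95% interval 0.15 to 0.38, adjusted p = 0.00160), from 503 to 856 counts per library. In GENCODE M21, 233 bases of its exons (14.3%) lie opposite a transcript of A830012C17Rik, and the strand setting of the counting is not given in the sources used here, so reads from these bases cannot be assigned to one gene with certainty.

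Lif and Il6 encode cytokines that signal through the shared receptor subunit gp130 (Il6st), and Lif was far the more abundant of them per length. Lif (chr11:4257557-4272514, plus strand, 4 exons) was at 1049, 1058, 1064 and 1051 CPM with DMSO and at 1004, 1001, 1010 and 1017 CPM with Yoda1. Every Yoda1 library was below every DMSO library, since the spread was unusually small, with coefficients of variation of 0.643% and 0.712%. At 12439 to 19775 counts per library, counting error alone gives a spread of about this size. The SDs of Lif may thus understate the spread between samples. The means were 1055 ± 6.78 and 1008 ± 7.18 CPM (SD, n = 4 each), and the exact permutation test gave p = 0.0286, the smallest that 4 against 4 samples allow. The fit over all genes, which draws the spread of a gene toward that of the others, put the log2 fold change at −0.066 (standard error 0.032, adjusted p = 0.198, and 0.0532 to 0.331 over the alternatives).

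Il6 (chr5:30013114-30019981, plus strand, 5 exons) was at 15.3, 16, 16.5 and 14.9 CPM in the DMSO libraries. With Yoda1 it was at 24.5, 22.8, 20.7 and 22.3 CPM, well clear of the controls. The mean rose 1.44-fold, from 15.7 ± 0.694 to 22.6 ± 1.59 CPM (SD, n = 4 each), which is 0.52 on the log2 scale (standard error 0.073, 95% interval 0.37 to 0.67, adjusted p = 9.35e-06), at 202 to 433 counts per library. The ratio of Il6 to Lif counts within a library, which does not depend on scaling, went from 0.0142 to 0.0155 with DMSO to 0.0205 to 0.0244 with Yoda1. This difference of 0.59 on the log2 scale gave p = 0.0286 in an exact permutation test (0.0357 adjusted over 5 ratios between these genes). The 5 ratios were chosen after the values of the genes had been seen, so their p-values are no independent support. The Il6 promoter (GRCm38.p6, chr5:30012864-30013163, plus strand) is shown for comparison with that of Areg.
Il6 promoter: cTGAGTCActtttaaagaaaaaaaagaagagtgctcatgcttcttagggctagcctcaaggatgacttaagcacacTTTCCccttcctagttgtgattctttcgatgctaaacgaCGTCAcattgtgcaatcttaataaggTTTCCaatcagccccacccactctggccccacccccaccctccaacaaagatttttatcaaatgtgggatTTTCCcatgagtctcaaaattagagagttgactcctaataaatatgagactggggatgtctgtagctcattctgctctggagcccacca
It held a CRE half-site 135 bases before the start, an AP-1 site 249 bases before it and 3 NFAT cores. The full CRE was not found.

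Il9 (chr13:56479277-56482246, minus strand, 5 exons) encodes IL-9, a cytokine that ILC2s make transiently and that sustains them. Of the 9 products tested it was the one called lower. It was at 13.9, 11.8, 12.9 and 13.6 CPM with DMSO and at 10.4, 9.13, 12.1 and 11.1 CPM with Yoda1. The groups overlapped, since the highest Yoda1 library lay above the lowest DMSO library. The mean went from 13.0 ± 0.945 to 10.7 ± 1.23 CPM (SD, n = 4 each), and the log2 fold change was −0.29 (standard error 0.094, 95% interval −0.48 to −0.094, adjusted p = 0.0465; exact permutation test, p = 0.0571). The call was lost in 8 of 16 alternatives, with an adjusted p of 0.113 in DESeq2, 0.0538 with the replicate number as a block, 0.0982, 0.0776 and 0.102 without DMSO replicate 1, 3 or 4, and 0.100, 0.173 and 0.0757 without Yoda1 replicate 1, 2 or 4, though the direction was the same in all 16. The Il9 promoter (GRCm38.p6, chr13:56482208-56482507, minus strand) is shown as that of the gene called lower.
Il9 promoter: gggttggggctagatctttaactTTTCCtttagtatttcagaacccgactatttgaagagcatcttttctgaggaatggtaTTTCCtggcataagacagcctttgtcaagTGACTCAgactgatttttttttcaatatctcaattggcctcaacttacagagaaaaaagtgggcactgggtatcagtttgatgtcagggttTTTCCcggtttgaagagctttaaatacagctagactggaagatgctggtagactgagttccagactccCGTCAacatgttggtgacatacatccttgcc
It held an AP-1 site 140 bases before the start, 3 NFAT cores, and a CRE half-site beginning at base 20 of the transcribed part. An AP-1 site, a CRE half-site and 3 NFAT cores were therefore present in the promoters of both Il6 and Il9.

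Il10 (chr1:131019845-131024974, plus strand, 5 exons) encodes IL-10, an anti-inflammatory cytokine. It was at 2.63, 3.45, 2.37 and 3.55 CPM with DMSO and at 4.52, 4.87, 4.35 and 4.63 CPM with Yoda1. All Yoda1 libraries lay above all DMSO libraries. The mean went from 3.0 ± 0.589 to 4.59 ± 0.218 CPM (SD, n = 4 each), which is a 1.54-fold rise (log2 fold change 0.62, standard error 0.16, 95% interval 0.30 to 0.94, adjusted p = 0.00878). Counts were low, at 37 to 90 per library. The ratio of Il10 to Il9, a pair also chosen after values had been seen, went from between 0.184 and 0.293 with DMSO to between 0.360 and 0.533 with Yoda1. This is a log2 difference of 0.93 (exact permutation test, p = 0.0286, 0.0357 adjusted over 5 ratios).

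Il2 (chr3:37120523-37125959, minus strand, 4 exons) encodes IL-2, which was also supplied as protein in the medium. It had 7, 5, 0 and 0 counts in the DMSO libraries and 4, 9, 7 and 12 counts in the Yoda1 libraries, or 12 and 32 in all. The groups overlapped (exact permutation test, p = 0.0571). A count of 0 allows a level of up to 0.194 CPM in DMSO replicate 3 and 0.223 CPM in DMSO replicate 4. Il2 did not pass the filter on low counts. Without that filter, edgeR gave an adjusted p of 0.0976, and DESeq2 gave none. T cells are the best-known producers of IL-2, and the part of T cells in these counts was not tested, with the summed T cell markers at 88.7 to 95 CPM in the DMSO and 97.2 to 108 CPM in the Yoda1 libraries. Cd3g made up the largest part of that sum.

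**Figure D3:**
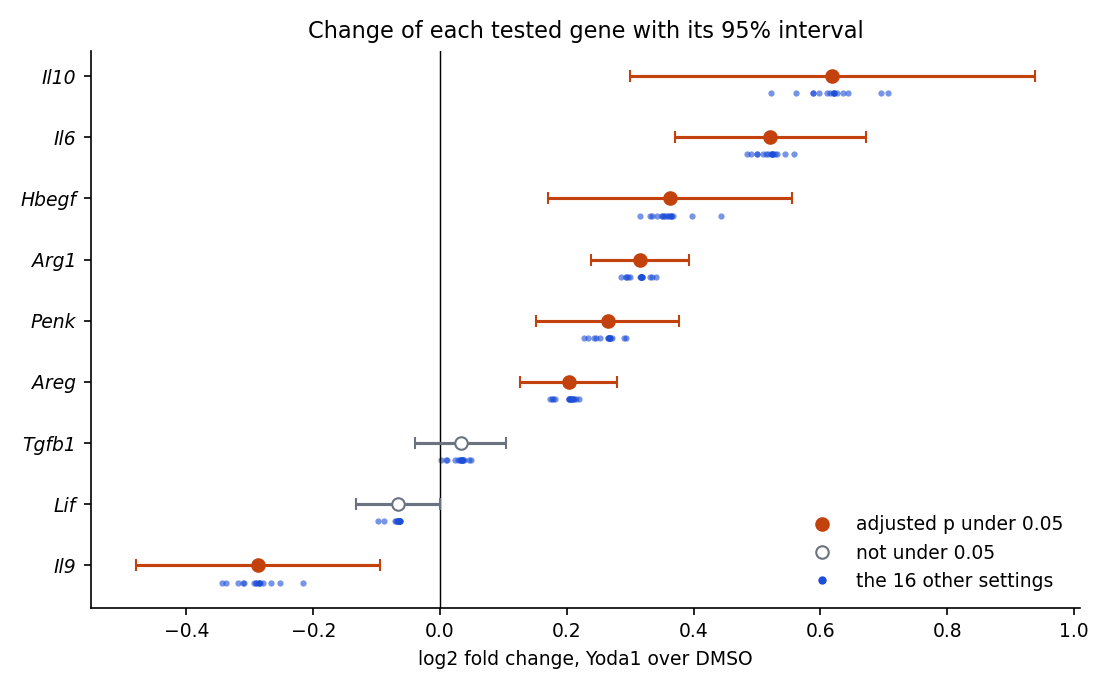
Log2 fold change (Yoda1 over DMSO) of the 9 tested genes from edgeR with its 95% interval, filled where the adjusted p was under 0.05, and the value under each of 16 other settings as small points below. Il10 (0.62) and Il6 (0.52) lie farthest to the right, Il9 (−0.29) lies to the left, and no gene changed direction under any setting.

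The 3 remaining ratios, likewise chosen after values had been seen, were compared within libraries. Arg1 to Tgfb1 went from 1.45 to 1.62 with DMSO to 1.72 to 1.93 with Yoda1 (log2 difference 0.28), and Penk to Il9 from 2.64 to 3.18 to between 3.78 and 5.03 (log2 difference 0.56). For both, the exact permutation test gave p = 0.0286 (0.0357 adjusted over 5 ratios). Hbegf to Areg, the EGFR ligands, overlapped between the groups, at 0.0339 to 0.0379 and 0.0344 to 0.0428 (log2 difference 0.16, exact permutation test, p = 0.114, 0.114 adjusted). These data therefore do not show that the 2 ligands changed by different amounts.

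**Figure D4:**
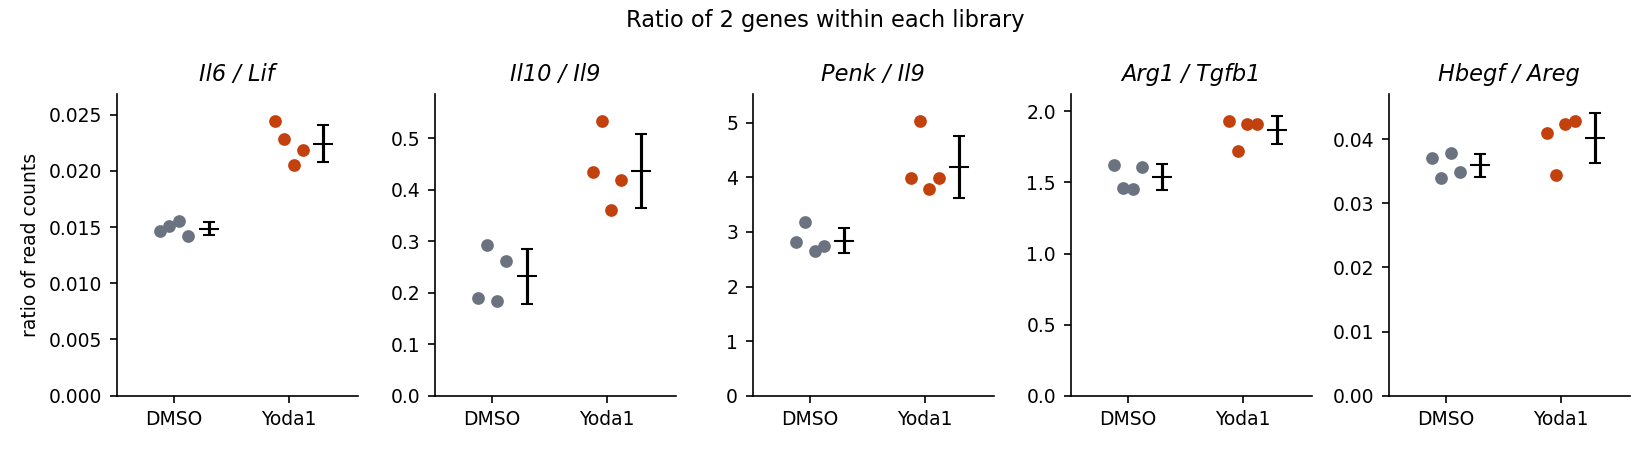
Ratio of the read counts of 2 genes within each library (linear axes from 0), with 1 point per library and the mean ± SD beside them. The DMSO and Yoda1 points are apart for Il6 to Lif, Il10 to Il9, Penk to Il9 and Arg1 to Tgfb1, and they overlap for Hbegf to Areg.

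Each gene was then set against Il13, the leading cytokine mRNA of these cells, by the same ratio. Il13 itself rose with Yoda1, by 0.30 on the log2 scale. Arg1 rose by a similar amount on average, with a ratio of 0.139 to 0.162 in DMSO and 0.148 to 0.155 in Yoda1 libraries. The log2 difference was 0.020, with SDs of 0.089 and 0.028 in the groups (exact permutation test, p = 0.686). The ratios of Penk (−0.032), Hbegf (0.063) and Areg (−0.092) to Il13 also overlapped between the groups. Lif (−0.36), Tgfb1 (−0.26) and Il9 (−0.59) had lower ratios to Il13 in every Yoda1 library than in any DMSO library. The exact permutation test gave p = 0.0286 for each, the smallest that 4 against 4 samples allow. Adjusted over the 9 ratios it was 0.0857, so none passed. With only these ratios at the smallest p, an adjusted p under 0.05 was not possible, so the adjustment cannot decide here. Il6 (0.23) and Il10 (0.34) were higher relative to Il13 on average, with overlap (exact permutation test, p = 0.0571 for each, 0.103 adjusted).

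The rest of each pathway was read from lists of ligands, receptors, enzymes and regulators. The count called in each list is to be read beside the 10.9% called over all genes tested (6.04% higher and 4.84% lower). The other EGF family ligands were scarce. Of 9, 3 were tested (Egf at 1.53 CPM, Ereg at 2.61 and Nrg4 at 1.56 with DMSO), and 0 passed in edgeR, DESeq2 or limma-voom or had an unadjusted edgeR p under 0.05. EGFR ligands are made as membrane proteins and released by ectodomain shedding. Of 18 receptors and shedding genes, 16 were tested, 4 rose and 0 fell in edgeR, as in DESeq2 and limma-voom (6 higher and 1 lower at an unadjusted p under 0.05). Those that rose were Adam19 (301 ± 5.66 to 346 ± 11.2 CPM, log2 fold change 0.20, adjusted p = 0.000184), Rhbdf2, a carrier of the sheddase ADAM17 (0.16, adjusted p = 0.0172), Adam10 (0.15, adjusted p = 0.00886) and Adam9 (0.14, adjusted p = 0.0322). The calls of Rhbdf2 and Adam9 were lost in 4 and 8 of 16 alternatives. Adam17, the main sheddase of amphiregulin, was at 96.5 ± 2.75 and 101 ± 2.94 CPM (adjusted p = 0.333), and Egfr was at 2.92 ± 0.580 and 3.28 ± 0.616 CPM (adjusted p = 0.549).

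Around Arg1, 17 of 20 genes of arginine and polyamine metabolism were tested, and 2 rose and 0 fell in edgeR (4 and 3 at an unadjusted p under 0.05, 3 and 0 in DESeq2, 2 and 0 in limma-voom). This share, 2 of 17, was near the 10.9% called over all genes tested. Both genes that rose catabolize polyamines, which are built from ornithine. Smox, spermine oxidase, went from 123 ± 4.25 to 150 ± 3.80 CPM (log2 fold change 0.29, adjusted p = 3.15e-06), and Sat1, which acetylates spermidine and spermine, from 53.7 ± 1.53 to 63.4 ± 2.12 CPM (0.24, adjusted p = 0.000633). Paox, polyamine oxidase, went the other way, from 5.00 ± 0.358 to 3.76 ± 0.367 CPM (−0.41, adjusted p = 0.0551). It did not pass the test, but its groups did not overlap. Odc1, which decarboxylates ornithine, was at 514 ± 2.86 and 547 ± 15.2 CPM (adjusted p = 0.0861). Arg2, the mitochondrial isoform, had 0 or 1 count per library, and Slc7a1, an arginine importer, was at 160 ± 8.07 and 170 ± 6.90 CPM (adjusted p = 0.198).

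Of 16 genes for opioid precursors, their processing and their receptors, 8 were tested, and 0 passed in edgeR, DESeq2 or limma-voom or had an unadjusted edgeR p under 0.05. Pcsk1, a prohormone convertase, was at 114 ± 2.95 and 117 ± 4.44 CPM and Cpe, which trims the cut peptides, at 3.86 ± 0.438 and 3.74 ± 0.603 CPM. Pdyn, Pcsk2, Oprm1 and Oprk1 were at 0 in all libraries. Among 27 genes of TGF-β activation and signalling, 22 were tested, and 2 rose and 0 fell in edgeR, as in DESeq2 and limma-voom (3 and 4 at an unadjusted p under 0.05). This share, 2 of 22, was also near that over all genes tested. Itgav, the αv integrin chain that takes part in freeing TGF-β, went from 174 ± 13.5 to 216 ± 19.1 CPM (log2 fold change 0.31, adjusted p = 0.0153), a call lost without DMSO replicate 2 (adjusted p = 0.0503). Tgif1, a repressor of SMAD-driven transcription, went from 17.0 ± 0.676 to 21.5 ± 2.49 CPM (0.33, adjusted p = 0.00627), and Tgfbr2 was at 396 ± 7.66 and 392 ± 7.48 CPM (adjusted p = 0.805).

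In the IL-6 and LIF family, 12 of 20 genes were tested, 1 rose and 2 fell. Osm, the cytokine gene next to Lif at a distance of 16531 bases, fell from 218 ± 5.88 to 195 ± 4.25 CPM (log2 fold change −0.16, adjusted p = 0.00270). Jak2 rose from 757 ± 15.3 to 880 ± 24.1 CPM (0.22, adjusted p = 5.05e-05), and Tyk2 fell (−0.11, adjusted p = 0.0370), a call lost in 7 of 16 alternatives. The receptor chains that bind LIF and IL-6 had few reads, with 4 to 12 counts per library for Lifr and 0 to 5 for Il6ra, while Il6st was at 9.55 ± 0.426 and 10.7 ± 1.13 CPM (adjusted p = 0.335). Receptors of the other cytokines were present. Of 15 genes for receptors of IL-2, IL-9 and IL-10 and their kinases, all were tested, and 0 rose and 1, Tyk2 again, fell in edgeR (6 and 1 at an unadjusted p under 0.05, 1 and 1 in DESeq2, 0 and 1 in limma-voom). Il2ra was at 3538 ± 105 and 3754 ± 118 CPM (adjusted p = 0.115), Il9r at 100 ± 3.06 and 97.6 ± 3.63 (adjusted p = 0.665) and Il10ra at 224 ± 5.11 and 220 ± 4.47 (adjusted p = 0.637).

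Transcription factors linked to these products moved both ways, with 24 of 25 tested, 4 higher and 4 lower. Those with the largest changes were Etv5 (72.4 ± 3.15 to 58.5 ± 2.13 CPM, log2 fold change −0.31, adjusted p = 2.51e-05), Nfatc2, a calcium-responsive factor (337 ± 23.2 to 277 ± 17.9 CPM, −0.28, adjusted p = 0.000833), Crem, which binds CRE sites (156 ± 6.78 to 187 ± 5.67 CPM, 0.26, adjusted p = 2.72e-05), and Nfkb1 (852 ± 19.3 to 991 ± 16.7 CPM, 0.22, adjusted p = 3.46e-05). Of 19 factors that act on AU-rich or stem-loop elements of mRNAs, all were tested, 1 rose and 2 fell. Zfp36, which encodes tristetraprolin and promotes the decay of AU-rich mRNAs, went from 12.8 ± 1.66 to 17.2 ± 1.23 CPM (0.43, adjusted p = 0.00138). Arid5a, which is known to stabilize Il6 mRNA, fell from 234 ± 7.45 to 172 ± 4.96 CPM (−0.44, adjusted p = 5.01e-10), while Il6 rose. Cnot6, a deadenylase subunit, fell by 0.13 on the log2 scale (adjusted p = 0.0343), a call lost in 8 of 16 alternatives.

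**Figure D5:**
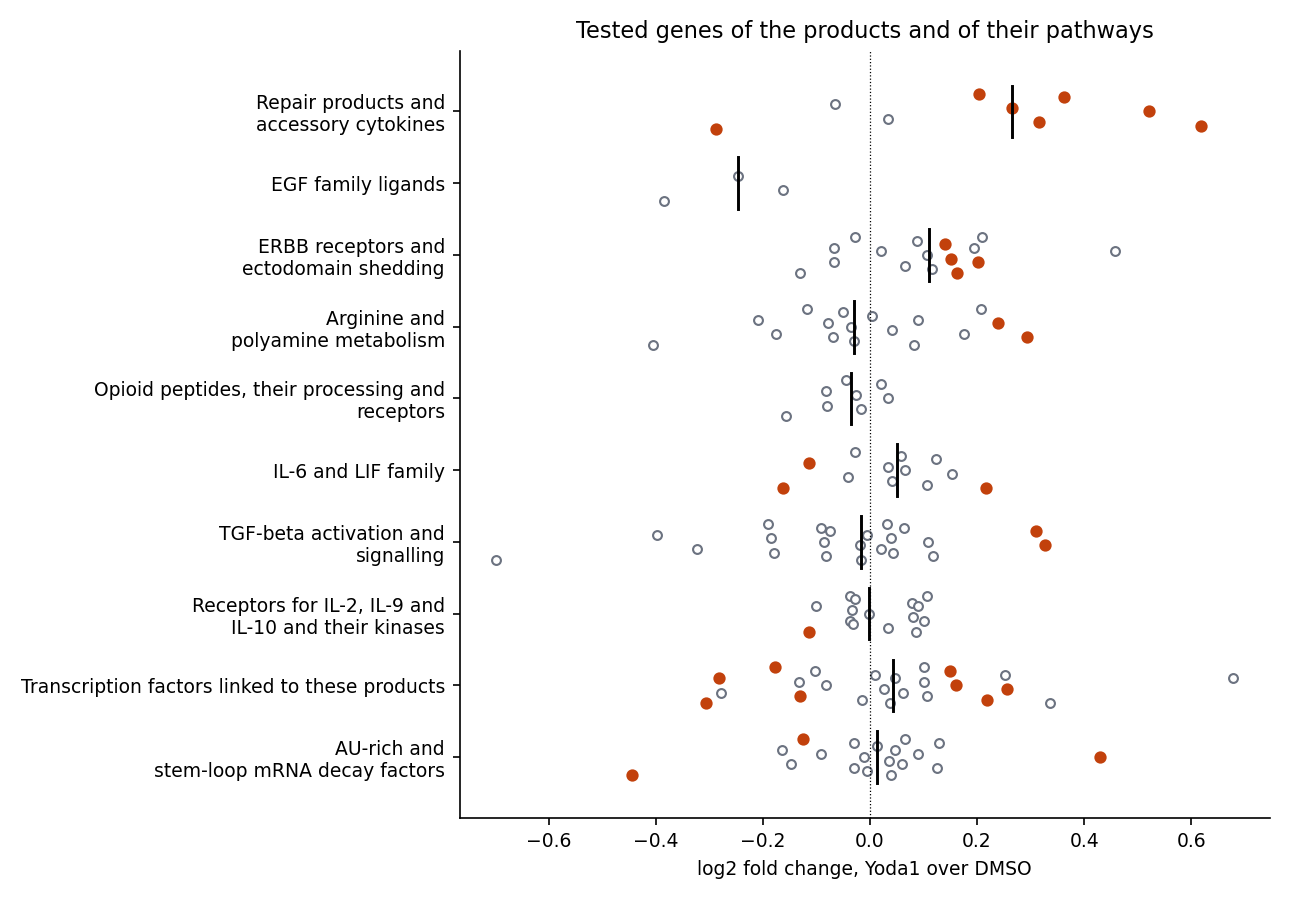
Log2 fold change (Yoda1 over DMSO) of every tested gene of the 10 products and of 9 lists around them, filled where the edgeR adjusted p was under 0.05, with the median of each row as a bar. The products have a median of 0.27, and the medians of the other rows lie between −0.25 and 0.11.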

How the data were processed

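Poly(A)-selected RNA of cultured murine lung ILC2s was sequenced in 4 Yoda1 and 4 DMSO samples. The files that the authors deposited hold 1 whole-number read count for each gene symbol, not normalized. The methods name BBMap after trimming with FASTX Trimmer, then Cufflinks with Cuffdiff. The submitters' processing notes name TopHat and mm10, whose versions are not given in the sources used here. The annotation and strand setting of the counting are likewise not given in the sources used here.

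Genes were filtered with filterByExpr (minimum count 10, minimum total count 15), scaled with TMM (factors 0.988 to 1.01) and compared in R 4.3.3 with the quasi-likelihood test of edgeR 4.0.16 with robust fitting, with Benjamini-Hochberg adjustment over the 12239 genes tested and a threshold of 0.05. All adjusted p-values in the text are from this test unless another is named. Single values and within-library ratios were compared by two-sided exact permutation tests, and the ratios were chosen after values had been seen. Alternatives were DESeq2 1.42.0, limma-voom (limma 3.58.1), RLE or upper-quartile factors, library size only, no filter, a minimum of 10 counts in all samples, a block for the replicate number, and leaving out each sample. The test was first tested on simulated data. In edgeR, 93% of simulated log2 changes of 1 were recovered and 76% of those of the smaller simulated size, with 6.11% of calls false. Changes as small as those of most of the 10 genes called here were not simulated.

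Counts per library ranged from 12438009 to 19534653. Floors of 3 counts cover counting error only, while the 95% intervals are those of the edgeR fit and include the spread between samples. Every pair of libraries of a group differed by more than sampling noise (chi-square per gene 2.04 to 6.94). Gene positions, exons and 3′ UTRs came from GENCODE M21 (GRCm38), in which all 10 genes were matched, and promoters from RefSeq (GRCm38.p6), in which 6 of the 10 were matched.

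The 10 genes, the pathway lists and the marker lists were chosen with earlier results of these data known. All 10 genes are named, and of each list up to 4 genes past the threshold with the largest changes, plus receptors and processing enzymes.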

Additional observations from a re-analysis of the deposited data

Results flagged for a closer look

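In a group of 4 samples, a library is given here when its gap to the nearest other library exceeded Dixon's 95% critical value for the group's range. Of 56 groups examined (28 genes in both conditions), 5 met this, where chance gives about 1 in 20, or 2.8. Areg in Yoda1 replicate 3 was at 342 CPM, above the next library at 319 CPM, and the log2 fold change of Areg was between 0.18 and 0.22 when each sample was left out. Hbegf in DMSO replicate 3 was at 10.8 CPM, with the next at 9.90 CPM. Jak2 in DMSO replicate 1 was low at 734 CPM, with the next at 763 CPM. Osm in Yoda1 replicate 2 was low at 188 CPM, with the next at 196 CPM. Itgav in Yoda1 replicate 2 was high at 244 CPM, with the next at 209 CPM. Yoda1 replicate 2 appears 2 times, once low and once high.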

How the results depend on the processing

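The calls of Areg, Arg1, Penk, Il6 and Il10 held in all 16 alternatives, with log2 fold changes of 0.17 to 0.22, 0.28 to 0.34, 0.23 to 0.29, 0.48 to 0.56 and 0.52 to 0.71. Lif and Tgfb1 passed in none, and none of the 9 tested genes reversed. Il2 was fitted only without the filter and by DESeq2. The number of the 10 genes past the threshold was 7, and 5 to 7 over the alternatives, the lowest without Yoda1 replicate 4. The number of genes whose groups do not overlap, 7, was 6 with library size only or upper-quartile factors and 7 to 8 with a sample left out. Over all genes, 739 were higher and 592 lower, and the lower count was 372 with DESeq2, 958 with upper-quartile factors (505 higher) and 809 with library size only (553 higher). It ran from 367 to 677 when a sample was left out, with 367 without DMSO replicate 2 and 374 without Yoda1 replicate 4, and the higher count from 519 to 807. With the replicate number as a block, 966 genes passed (548 higher and 418 lower) against 1331 without it. Same-numbered samples had correlations of 0.0482, 0.0711, −0.0277 and 0.000226 of their deviations from the group means. These values give no sign that the numbers pair the samples, but they cannot exclude it. The block changed the call of Il9 only among the 10. Leaving out samples was also tried for the ratios, chosen after seeing the data. The depth limits Il2, at 0 to 12 counts per library, and Il10, at 37 to 90.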

Other observations

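Genes within 100000 bases of the 10 were read for their own changes and are named here after their values were seen. Mapkapk2, 28726 bases from Il10, encodes the kinase MK2, which acts on proteins that bind AU-rich mRNAs. Its log2 fold change was 0.14 (adjusted p = 0.00705 in edgeR's quasi-likelihood test). Ereg, the EGF family ligand 45953 bases from Areg, did not pass the test (−0.25, adjusted p = 0.506), nor did Med23, 1540 bases from Arg1 (0.028, adjusted p = 0.778).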
